A study of Canis lupus familiaris with 23 samples.

Results

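Macrophages are the resident phagocytes of every organ, and they also enter solid tumors. The 6 genes CSF1R, FCGR1A, CD68, CTSS, LYZ and SRGN, all active in macrophages, were followed through canine osteosarcoma, a bone-forming cancer of dogs. The members were every probe set that the array's annotation assigns to 1 of these symbols and to no other gene. This gave 12 of the 23836 probe sets, for 6 of the 6540 genes with a symbol. The 12 were 5 probe sets for CTSS, 3 for CSF1R and 1 for each of the others.

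The series held 23 RNA samples on 1 type of canine expression array. There were 15 primary osteosarcomas, taken at surgery from pet dogs before any chemotherapy, and 2 canine osteosarcoma cell lines. The normal samples came from research-colony dogs, with 2 samples each of kidney, liver and lymph node. No normal bone or bone marrow was analysed here, so the tumors could be set only against macrophages of other organs. All values below are log2 expression values after robust multi-array averaging (RMA), so that a difference of 1 is a factor of 2 in signal. Levels are compared only within a probe set.

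CSF1R is the receptor for the growth factor that macrophages need to develop and survive, and osteoclasts, the bone-resorbing cells of the same lineage, need it too. FCGR1A is the high-affinity receptor for IgG antibodies. CD68 is a membrane protein of lysosomes, abundant in macrophages and in osteoclasts. CTSS is a lysosomal protease that frees MHC class II molecules for antigen presentation. LYZ encodes lysozyme, an enzyme secreted by macrophages and granulocytes that cuts bacterial cell walls. SRGN encodes serglycin, the proteoglycan that packs secretory granules in blood cells of many kinds, including lymphocytes and mast cells. None of these genes belongs to macrophages alone, and in bulk samples fewer cells of a type cannot be told apart from less RNA per cell.

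The arrays differed in ways that the groups did not explain. Signal at the 5′ ends of the actin and Gapdh control transcripts was low in 10 arrays, namely kidney 1, liver 1, lymph node 1 and tumors 1, 4, 7, 8, 10, 12 and 14. A bacterial spike RNA called Dap read above 6 in tumors 2, 5, 6, 11 and 15 (6.34 to 8.17) and at most 4.93 in every other sample. These 5 tumors all had full 5′ signal and are called spiked tumors here. Array medians lay between 4.73 and 4.95. The organ labels fitted their markers. The mean of 6 hepatocyte genes was 10.3 and 10.9 in livers and at most 6.36 elsewhere, that of 6 kidney epithelium genes was 7.02 and 7.44 in kidneys and at most 5.52 elsewhere, and the T cell gene CD3E was 8.09 and 9.79 in lymph nodes and 6.27 to 7.33 in tumors.

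In the tumors most of the 6 genes were strongly expressed and varied widely. CSF1R was measured mainly by 2 probe sets. In the brighter one (1583824_s_at) the 15 tumors ran from 7.65 through a median of 9.03 to 11.6. The kidneys were at 7.34 and 5.91, the livers at 10.3 and 8.76, the lymph nodes at 10.2 and 8.88, and the cell lines at 3.91 and 4.80. All tumors were above both kidneys and both cell lines, and they overlapped the livers and lymph nodes. The other probe set (1583823_at) gave a like profile, with tumors at 6.90, 8.47 and 11.1 for lowest, median and highest, kidneys at 5.06 and 6.0, livers at 8.62 and 8.23, lymph nodes at 8.80 and 8.95, and cell lines at 4.22 and 4.35. The remaining one (1596569_at) separated no tissue group. It ran from 5.79 to 8.65 in tumors and from 5.5 to 7.41 over the normal samples. Tumors with low 5′ signal were at 5.79 to 6.64 and those with full 5′ signal at 6.66 to 8.65. With both kinds of tumors pooled, this probe set followed the first 2 weakly (r = 0.02 and 0.34, against 0.89 between those 2).

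The Fc receptor FCGR1A did not share this profile over the organs. Tumors were at 4.48, 7.14 and 8.83 for lowest, median and highest. The kidneys were at 5.11 and 5.20, the livers at 4.45 and 5.21, the lymph nodes at 4.05 and 4.39 and the cell lines at 3.43 and 4.11. Lymph node, where several of the other members peaked, was the organ with the lowest FCGR1A. All organ values were near the array medians, and the difference among organs (range of means 0.93) did not pass (limma F-test, adjusted p = 0.259). In 13 of 15 tumors FCGR1A was above all 6 normal samples. The exceptions were tumors 6 and 12.

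The lysosomal pair differed from each other. CD68 was 6.37, 9.23 and 11.6 in tumors, 5.88 and 5.33 in kidneys, 8.42 and 7.41 in livers, 8.66 and 8.15 in lymph nodes, and 5.24 and 5.01 in cell lines. It was above every normal sample in 10 of 15 tumors. CTSS (1595998_s_at) was 7.99, 9.41 and 10.4 in tumors, 9.29 and 9.26 in kidneys, 10.3 and 9.89 in livers, 11.2 and 10.4 in lymph nodes, and 3.84 and 3.37 in cell lines. By this probe set the tumors surrounded the kidneys and lay mostly below the other organs. Probe sets 1582636_at and 1582637_s_at of CTSS followed it over the tumors (r = 0.89 and 0.91). By 1582636_at, however, 8 of 15 tumors were above both livers and 6 below both. Probe sets 1595997_at and 1596801_at stayed between 3.22 and 4.86 in all samples, at the bottom of the scale, and followed it at r = 0.19 and 0.13.

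The secreted and granule proteins were highest in lymph node. LYZ was 6.15, 8.17 and 11.1 in tumors, 4.63 and 7.83 in kidneys, 7.21 and 7.5 in livers, 10.1 and 11.2 in lymph nodes, and 3.52 and 3.56 in cell lines. Only tumors 5 and 11 reached the lymph node level. SRGN was 7.53, 9.61 and 11.6 in tumors, 8.35 and 7.49 in kidneys, 10.2 and 8.93 in livers, 12.1 and 11.9 in lymph nodes, and 3.55 and 4.75 in cell lines. Both lymph nodes were above all 15 tumors for SRGN.

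**Figure D1:**
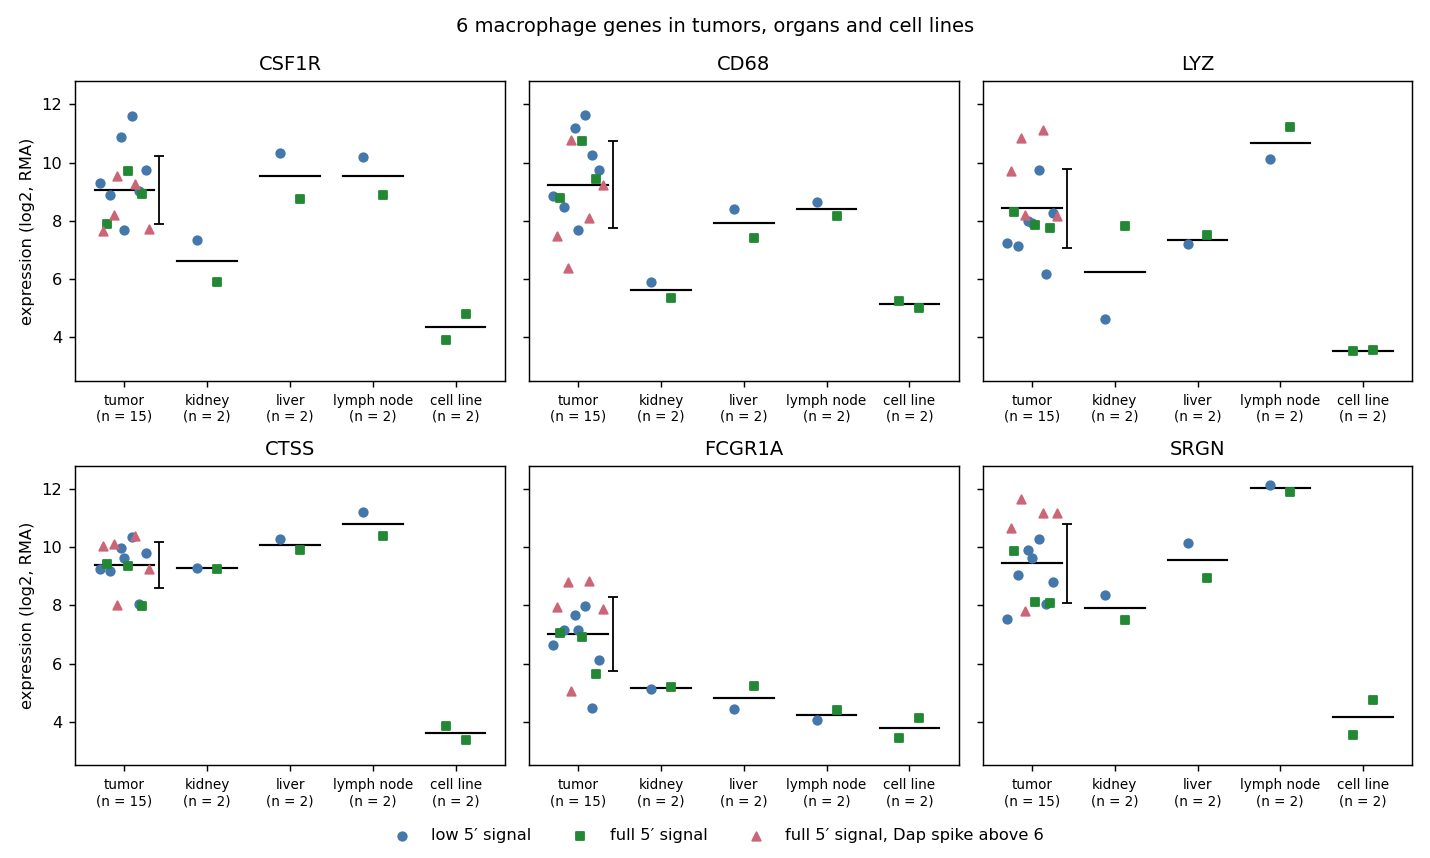
Expression (log2, RMA) of the 6 genes, each by its brightest probe set, in every sample. Lines are group means, the bar beside the tumors is ± 1 SD (n = 15), and colors and shapes give 5′ signal and spike; levels of different genes are not comparable. The cell lines lie below all tumors for each gene, and FCGR1A alone has its lowest organ level in lymph node. The organ values of FCGR1A span only 4.05 to 5.21.

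The first comparison asked whether tumors as a group carried more of these transcripts than normal organs. Of the 12 member probe sets, 1 was higher in tumors, against 3.02% of all probe sets on the array, and 0 were lower, against 2.93% (limma, adjusted p under 0.01). At an unadjusted p under 0.05, 3 were higher and 0 lower. The 1 was FCGR1A, with 7.02 ± 1.27 in tumors (SD, n = 15) and 4.74 ± 0.50 in normal samples (n = 6), a difference of 2.28 ± 0.52 (SE; adjusted p = 0.00571). Among arrays with low and with full 5′ signal alone the difference was 2.20 and 2.33 and did not pass (adjusted p = 0.0920 and 0.117). The call was also lost with organ as a random block (adjusted p = 0.0157), with the 5′ index as covariate (adjusted p = 0.0129), without kidney 1, liver 1, liver 2, lymph node 1 or lymph node 2 (difference 2.14 to 2.38, adjusted p = 0.0105 to 0.0170) and without the spiked tumors (1.94, adjusted p = 0.0112).

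Next by adjusted p was the dim CTSS probe set 1595997_at, 0.49 ± 0.15 higher in tumors (limma adjusted p = 0.0315). CD68 was 1.94 ± 0.68 higher (adjusted p = 0.0674), and neither passed. CSF1R differed by 0.95 ± 0.59 and 0.49 ± 0.61 in its main probe sets and LYZ by 0.34 ± 0.78. CTSS differed by -0.66 ± 0.37 in its brightest probe set and SRGN by -0.38 ± 0.71, and none of these passed. The intervals were wide. For LYZ the 95% interval ran from -1.28 to 1.95, and for SRGN from -1.85 to 1.09. The study describes its normal samples as biological replicates rather than pools or repeat assays. The tumor versus normal difference was also set between the 2 classes of 5′ signal. That interaction passed for 0 of 12 member probe sets (0.0378% of all probe sets; 0 members at an unadjusted p under 0.05, limma).

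The organ average hid differences between organs, so tumors were next set against each organ in 1 model of all 23 samples. Kidney gave the largest excess for most members. CSF1R was higher in tumors than in kidney by 3.03 ± 0.72 (1583823_at, adjusted p = 0.00648), the 1 member of 12 that passed (2% of all probe sets were higher and 5.26% lower, with 0 members lower). CD68 was 3.64 ± 0.96 higher (adjusted p = 0.0141), and the brighter CSF1R probe set 2.44 ± 0.80 higher (adjusted p = 0.0537). All 15 tumors were above both kidneys for 4 of the 12 probe sets (2 of CSF1R, CD68 and the dim CTSS probe set 1595997_at), against 4.69% of all probe sets. For LYZ (2.19 ± 0.95) and FCGR1A (1.86 ± 0.81) the adjusted p was 0.175 and 0.177, and CTSS differed by 0.11 ± 0.53 in its brightest probe set (95% interval -0.99 to 1.21). The 2 CTSS probe sets that followed it differed by 1.21 ± 0.63 and 0.90 ± 0.61, with 10 and 11 of 15 tumors above both kidneys, and did not pass either. With 2 kidneys the calls leaned on single samples. The CSF1R call was lost without kidney 1 (2.56, adjusted p = 0.180) or kidney 2 (3.49, adjusted p = 0.0315), while CD68 passed without tumor 5 (3.84, adjusted p = 0.00347) and without the spiked tumors (4.07, adjusted p = 0.00252).

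Liver houses the Kupffer cells, its resident macrophages. Passing the test were 0 of 12 member probe sets in either direction, against 9.28% of all probe sets (limma; 1 member, FCGR1A, at an unadjusted p under 0.05). FCGR1A was 2.19 ± 0.81 higher in tumors (adjusted p = 0.0819), CD68 1.33 ± 0.96 higher and LYZ 1.07 ± 0.95 higher, with 12 of 15 tumors above both livers for LYZ. SRGN (-0.09 ± 0.89), the CSF1R probe sets (0.13 ± 0.72 and -0.48 ± 0.80) and CTSS (-0.70 ± 0.53) had 95% intervals that included 0. So did the 2 CTSS probe sets that followed the brightest one (0.03 ± 0.63 and -0.52 ± 0.61). For SRGN the interval ran from -1.95 to 1.76, so a difference of several fold could not be detected with 2 livers.

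Against lymph node the members split. FCGR1A was higher in tumors by 2.80 ± 0.81 (adjusted p = 0.0383). In the other direction were SRGN (-2.57 ± 0.89, adjusted p = 0.0930), LYZ (-2.25 ± 0.95, adjusted p = 0.207) and CTSS (-1.40 ± 0.53, adjusted p = 0.134). CSF1R (-0.48 ± 0.80) and CD68 (0.84 ± 0.96) lay between. Again 0 of 12 member probe sets passed at 0.01, against 4.24% of all probe sets, while 6 had an unadjusted p under 0.05 (limma; 1 higher, 5 lower). All 15 tumors were above both lymph nodes for 1 member, FCGR1A (3.52% of all probe sets), and both lymph nodes were above all 15 tumors for 2 of 12, SRGN and CTSS 1582637_s_at (5.89%). Without the spiked tumors SRGN was lower by -3.09 and passed (adjusted p = 0.00681). Lymph node also held more lymphocyte RNA. Over 7 measured T and B cell genes the mean level was 6.59 and 7.84 in the lymph nodes and 4.94 to 5.64 in tumors, with 4 of 7 lower in tumors, beside 224 of all 6540 genes (CD3D by -5.75 ± 0.49, CD3E by -2.12 ± 0.30, CD28 by -2.07 ± 0.39 and LCK by -1.88 ± 0.25). SRGN and LYZ can come from cells other than macrophages, and the part of lymphocytes in their difference was not tested.

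**Figure D2:**
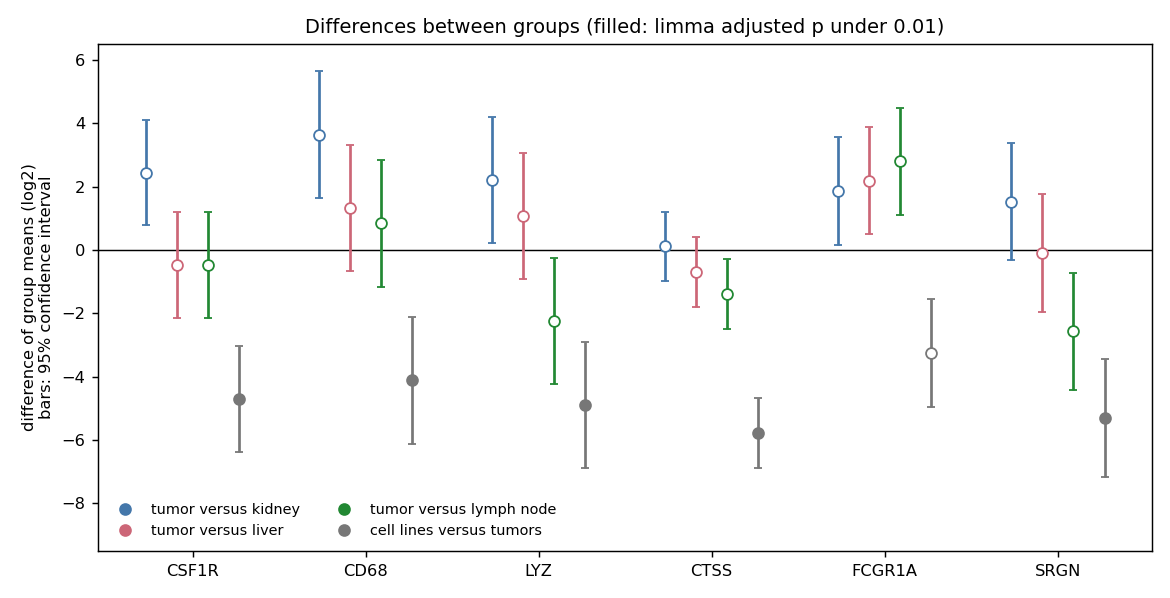
Differences between group means (log2, y axis) for the 6 genes (x axis), each by its brightest probe set; bars are 95% confidence intervals and filled points passed the test. Tumor minus kidney is above 0 for all 6 genes, tumor minus lymph node is highest for FCGR1A (2.80) and lowest for SRGN (-2.57), and cell lines minus tumors is below -3 throughout.

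The organs were also compared among themselves. In limma's F-test 0 of 12 member probe sets passed, against 3.09% of all probe sets, although 8 had an unadjusted p under 0.05. Same-numbered organ samples deviated together, and the replicate number coincided with the class of 5′ signal in every organ. With that number as a block, which is equally a block for 5′ class, 4 passed, against 6.2% of all probe sets. These were both main CSF1R probe sets (adjusted p = 0.00976 and 0.00180), CD68 (adjusted p = 0.00386) and SRGN (adjusted p = 0.00423). For each of these 4, kidney was the lowest organ, and the range between organ means was 3.35 and 2.91 for CSF1R, 2.80 for CD68 and 4.10 for SRGN.

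Genes that mark resident macrophages put these values in context. Of 12 measured genes of scavenging and resident macrophages, 2 were higher and 0 lower in tumors than in kidney, 1 higher and 3 lower than in liver, and 2 higher and 3 lower than in lymph node. Over all 6540 genes the counts were 239 higher and 470 lower against kidney, 398 and 505 against liver, and 165 and 224 against lymph node. CD5L, a secreted protein of Kupffer cells and other tissue macrophages, was 5.5 ± 0.78 in tumors (SD, n = 15), 9.01 and 10.99 in the livers and 10.4 and 11.2 in the lymph nodes. It was lower in tumors by -4.50 ± 0.56 and -5.28 ± 0.56 (SE; adjusted p = 4.68e-06 and 2.05e-06). The scavenger receptor MARCO was lower by -3.56 ± 0.71 and -4.30 ± 0.71, and AIF1, a calcium-binding protein of macrophages, by -2.05 ± 0.47 in both. The LPS receptor CD14 was higher in tumors than in kidney (2.13 ± 0.41) and lymph node (1.84 ± 0.41). The lectin LGALS3, which many cell types express, was higher than in liver (5.76 ± 0.45) and lymph node (4.32 ± 0.45). Its level in the cell lines (11.4 and 11.6) was near the tumor mean of 11.8. The haptoglobin receptor CD163 (-2.06 ± 0.95 and 0.47 ± 0.95) and the mannose receptor MRC1 (-1.39 ± 1.28 and 0.17 ± 1.28) did not pass against liver or lymph node. For CD5L and MARCO no tumor reached the livers or lymph nodes, whereas CSF1R and CD68 of the tumors overlapped both organs. The tumor means (5.5 and 5.44) were near those of the kidneys (5.18 and 4.76) and of the cell lines (4.83 and 4.94). Neither gene passed against kidney (0.32 ± 0.56 and 0.68 ± 0.71). The median difference over the 12 genes was 1.08, -1.72 and -0.51 against kidney, liver and lymph node, beside 0.07, 0.10 and -0.01 over all 6540 genes.

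Cell lines hold tumor cells without infiltrating cells, and here the members were low. Of 12 probe sets 9 were lower in cell lines than in tumors, against 2.5% of all probe sets. CTSS was lower by -5.78 ± 0.53 (adjusted p = 1.03e-06), SRGN by -5.30 ± 0.89, LYZ by -4.88 ± 0.95, CSF1R by -4.71 ± 0.80 and -4.27 ± 0.72, and CD68 by -4.12 ± 0.96 (adjusted p = 0.00688). FCGR1A was at -3.25 ± 0.81 (adjusted p = 0.0110) and passed without tumor 6, 12 or 13 (adjusted p = 0.00638, 0.00315 and 0.00887) or without the spiked tumors (-2.90, adjusted p = 0.00896). All 15 tumors were above both cell lines for 10 of 12 probe sets, against 9.52% of all probe sets. With 1 line left out the count of lower probe sets was 3 (without cell line 1) or 4 (without cell line 2), while the differences of CD68, LYZ, SRGN and the main CSF1R probe sets lay between -4.0 and -5.90.

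Of the other immune lists some had genes lower in cell lines, beside 191 of all 6540 genes. MHC class II genes were lower for 4 of 5 measured genes, by up to -7.51 ± 0.74 for DLA-DRA, and pan-leukocyte genes for 3 of 9, which were RAC2 (-4.32 ± 0.78), CYBB (-3.52 ± 0.75) and LAPTM5 (-3.26 ± 0.54). None of 7 T and B lymphocyte, 4 monocyte chemokine, 2 granulocyte or 3 mast cell genes passed as lower. The median over tumors of the mean level was 5.22 for the lymphocyte, 4.59 for the granulocyte and 4.15 for the mast cell list. These levels were near the array medians and left little room for a decrease. The lack of a call therefore does not set the lymphocyte, granulocyte and mast cell lists apart from the members. The monocyte chemokine list was brighter in tumors, at a median of 6.2. Of its genes CCL2 was not lower in cell lines, with means of 9.05 there and 8.66 in tumors. CCL3, CCL4 and CCL5 had lower means in cell lines and did not pass. TYROBP, the signalling adaptor of myeloid receptors, was lower by -2.90 ± 0.50. The endothelial gene PECAM1 was also lower (-5.43 ± 0.78), as was CD34 (-1.70 ± 0.31), so genes of another cell type of the tissue moved with the members, and their part was not tested.

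Among the 15 tumors 10 of the 12 member probe sets varied more than 91.0% of all probe sets, and the 2 dim CTSS probe sets more than 59.4% and 39.9%. By the brightest probe set of each gene the SD over tumors was 0.81 for CTSS, 1.16 for CSF1R, 1.27 for FCGR1A, 1.36 for SRGN, 1.37 for LYZ and 1.5 for CD68, above 91.0% to 98.8% of all probe sets. The 6 genes did not rank the tumors alike. Tumor 10 was first for CSF1R and CD68 and among the 5 highest for the other 4. Tumor 5 was first for SRGN and second for LYZ and FCGR1A, but 11th for CSF1R and last for CD68. Tumor 11 was first for LYZ, CTSS and FCGR1A and 12th for CD68. Tumor 6 was among the 3 highest for CD68 and 14th for CTSS, FCGR1A and SRGN.

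**Figure D3:**
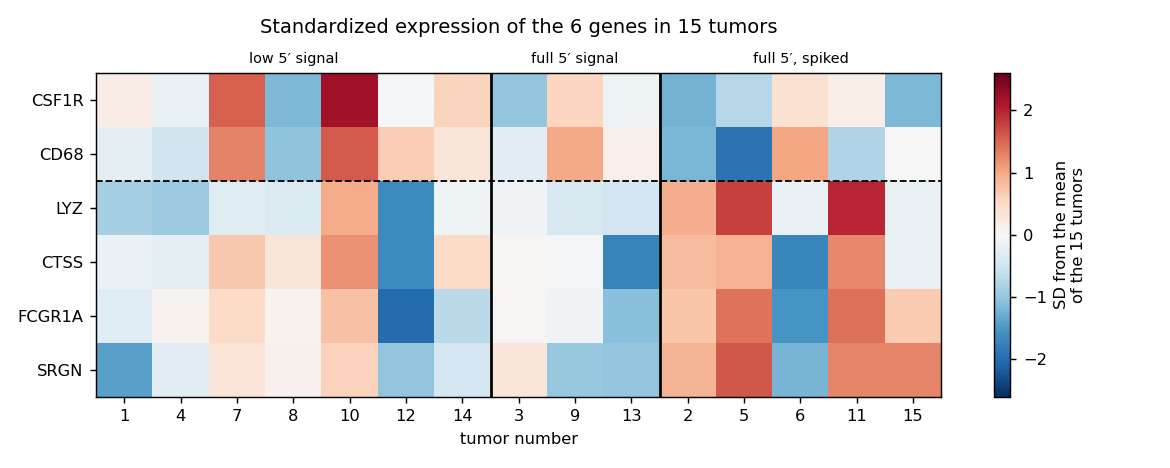
Expression of the 6 genes in the 15 tumors, each gene standardized over the tumors (color, in SD from the mean); tumors are grouped by 5′ signal and spike. CSF1R and CD68, above the dashed line, share a pattern, and LYZ, CTSS, FCGR1A and SRGN share another; tumor 5 is low for CD68 and high for SRGN, while tumor 10 is high for all 6.

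These rankings were tested as correlations over the 15 tumors. Of 15 pairs of members, 7 passed (two-sided permutation test with 100000 resamples, adjusted over the 15 pairs, threshold 0.05). They formed 2 separate sets. CSF1R and CD68 correlated at r = 0.781 (rho = 0.807, p = 0.00053, adjusted p = 0.00236). All 6 pairs among LYZ, CTSS, FCGR1A and SRGN passed, with r from 0.709 for LYZ and CTSS to 0.877 for CTSS and FCGR1A (rho = 0.821, adjusted p = 0.00045). The strongest rank correlation was between FCGR1A and SRGN (rho = 0.921, r = 0.864). None of the 8 pairs across the sets passed. Their r lay between -0.471 for CD68 and SRGN and 0.137 for CSF1R and CTSS.

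All 7 pairs passed again without the 2 tumors farthest from the median (r = 0.621 to 0.878), with Spearman's rho, and after the 5′ index or the Dap spike was taken out by partial correlation. The 2 tumors were chosen by 1 gene of each pair, the first in the order CSF1R, CD68, LYZ, CTSS, FCGR1A, SRGN. They can therefore differ between pairs, and leaving them out narrows the range of that gene. CSF1R and CD68 were at r = 0.637 without the 2 tumors (adjusted p = 0.0407). Under that setting a further pair, CSF1R and SRGN, passed with a negative sign (r = -0.642, adjusted p = 0.0407).

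Within classes of arrays the pairs inside each set stayed positive and the pairs across the sets did not keep their sign. In the 7 tumors with low 5′ signal CSF1R and CD68 had r = 0.922 (exact permutation test, adjusted p = 0.0402), the other set had r = 0.735 to 0.928, and all 8 cross pairs were positive, at 0.127 to 0.637, with none passing. In the 8 tumors with full 5′ signal CSF1R and CD68 had r = 0.610 (exact, adjusted p = 0.145), the other set had r = 0.751 to 0.951, and all 8 cross pairs were negative. CD68 passed there with SRGN (r = -0.840), LYZ (-0.811) and FCGR1A (-0.783), each at an exact adjusted p of 0.0412. Of those 8 tumors 5 were spiked. Without the spiked tumors the 8 cross pairs were at 0.124 to 0.483 over 10 tumors. The difference between the classes was not tested, and 5′ class, spike and tumor biology cannot be told apart in it.

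**Figure D4:**
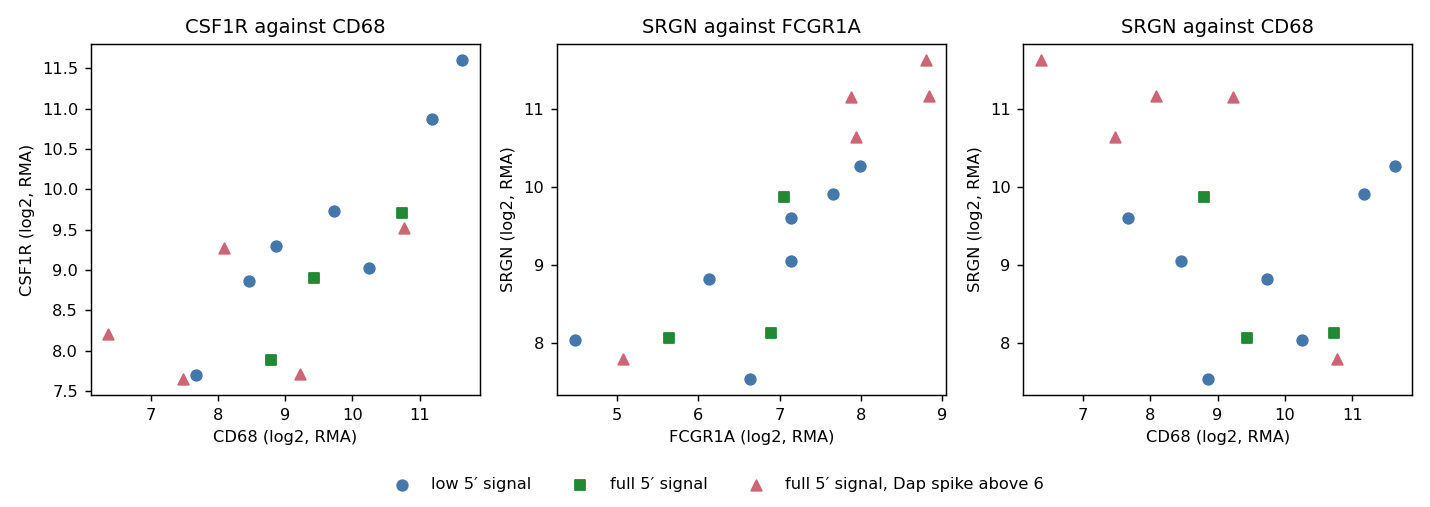
Each point is 1 of the 15 tumors, placed by the log2 expression of 2 genes; colors and shapes give 5′ signal and spike. CSF1R rose with CD68 (r = 0.781) and SRGN with FCGR1A (r = 0.864), whereas SRGN against CD68 (r = -0.471) has the spiked tumors 2, 5 and 11 at the top left.

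The spike was also set against each member. Over the 15 tumors the Dap signal had r = 0.646 with SRGN and 0.645 with LYZ (both adjusted p = 0.0661), and -0.533 with CD68 and -0.531 with CSF1R (both adjusted p = 0.126), in permutation tests adjusted over 12 relations. No relation passed. As groups, spiked and other tumors differed in 0 of 12 member probe sets (0.256% of all probe sets; 3 members at an unadjusted p under 0.05, limma), with LYZ 1.77 ± 0.56 and SRGN 1.56 ± 0.60 higher in spiked tumors (adjusted p = 0.105 and 0.167). Tumors with low and full 5′ signal also differed in 0 of 12 (3.18% of all probe sets, with 3 members at an unadjusted p under 0.05, limma). Closest to the threshold was the CSF1R probe set 1596569_at, at -1.22 ± 0.27 in tumors with low 5′ signal (adjusted p = 0.0112).

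Markers of other cells were then set against the members. TYROBP (myeloid cells), CTSK (cathepsin K, the collagen-cutting protease of osteoclasts), CD3E (T cells), PECAM1 (endothelium) and COL1A1 (bone matrix) gave 30 relations with the members, and 5 passed (permutation test, adjusted over the 30). CD68 correlated with CTSK at r = 0.917 (rho = 0.925, adjusted p = 0.0003), and this relation also passed without the 2 farthest tumors (0.907), without the spiked tumors (0.917) and in tumors with full 5′ signal (0.920). In tumors with low 5′ signal it was 0.932 (exact adjusted p = 0.0516). CSF1R correlated with TYROBP at 0.870 (rho = 0.811, adjusted p = 0.0012) and with CTSK at 0.679 (rho = 0.775, adjusted p = 0.0345), and CD68 with TYROBP at 0.665 (rho = 0.636, adjusted p = 0.0345). LYZ correlated with PECAM1 at 0.680 (rho = 0.589, adjusted p = 0.0345). Of these, the relations of TYROBP, of CSF1R with CTSK and of LYZ with PECAM1 did not pass without the 2 farthest tumors (r = 0.658, 0.591, 0.550 and 0.469, adjusted p = 0.194 to 0.326). The 2 tumors were those farthest from the median of the member in each relation. Whether they or the smaller number ended these calls was not tested. Without the spiked tumors CSF1R passed with TYROBP (0.874) and with CTSK (0.844), both at an adjusted p of 0.0141. With LYZ, CTSS, FCGR1A and SRGN over all 15 tumors, TYROBP had r of 0.0252 to 0.389 and CTSK of -0.463 to -0.235, and none passed. These low values did not hold in every class of arrays. Without the spiked tumors TYROBP had r of 0.464 to 0.726 and CTSK of 0.107 to 0.349 with the same 4 members, and in tumors with low 5′ signal TYROBP had 0.569 to 0.834 and CTSK 0.137 to 0.505, again with none passing.

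Over the 6 measured genes of the osteoclast list, the median r across all 15 tumors was 0.918 with CD68 and 0.701 with CSF1R, and -0.372, -0.187, -0.382 and -0.410 with LYZ, CTSS, FCGR1A and SRGN. The genes of the list differed, with r from -0.00994 to 0.961 for CD68, from -0.195 to 0.856 for CSF1R and from -0.494 to 0.342 for LYZ. Of the 6 genes 2 were higher in tumors than in normal samples and 0 lower, beside 310 and 295 of all 6540 genes. The gelatinase MMP9 was higher than in normal samples by 5.15 ± 0.85 and CTSK by 3.48 ± 0.42 (limma adjusted p = 0.00034 and 1.17e-05). The receptor TNFRSF11A, which takes the osteoclast differentiation signal, was 5.18 in tumors and 5.13 in lymph node, the integrin chain ITGB3 was 5.40 in tumors, and ATP6V0D2 was 7.32 in tumors and 7.37 in kidney. The mean level of the list was 6.45 to 9.66 in tumors, against 5.64 to 6.25 in the organs. For the 4 MHC class II genes bright enough in tumors the median r was 0.864 with CTSS, 0.773 with FCGR1A, 0.619 with LYZ and 0.572 with SRGN, against 0.370 with CSF1R and -0.09 with CD68. The 12 genes of scavenging and resident macrophages were less uniform. Their median r was 0.248 with CSF1R, 0.027 with CD68, and 0.431, 0.515, 0.479 and 0.302 with LYZ, CTSS, FCGR1A and SRGN. Single genes ran from -0.171 to 0.895 with CTSS and from -0.298 to 0.846 with SRGN.

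**Figure D5:**
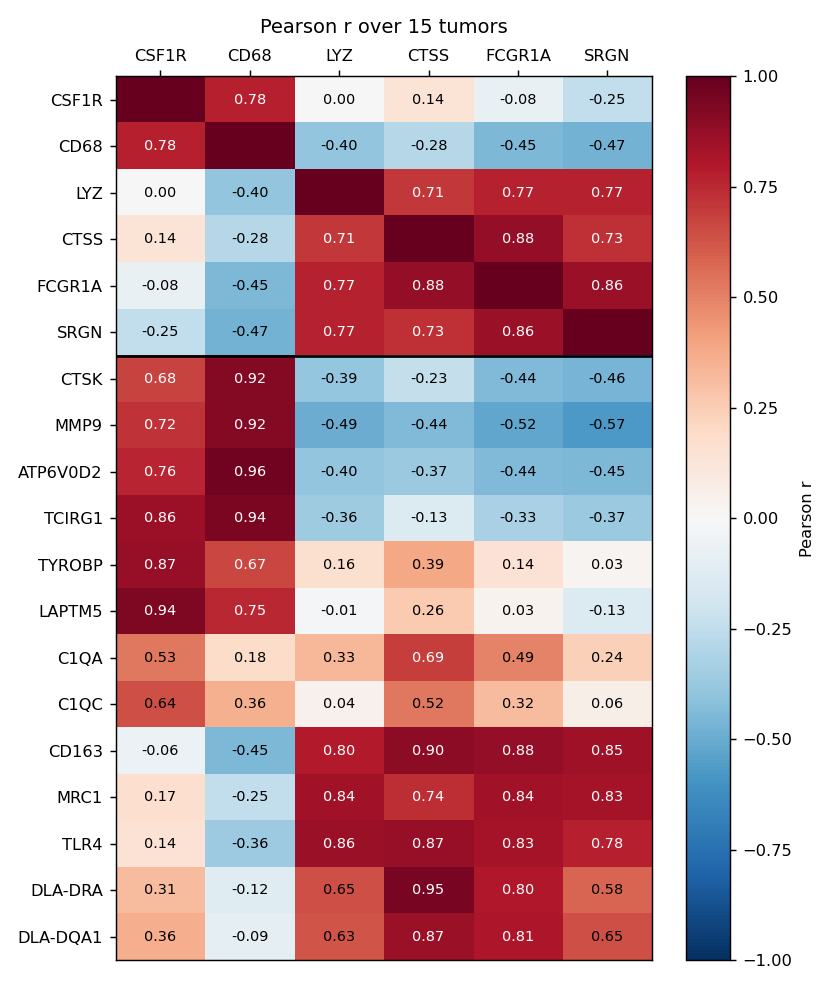
Pearson r over the 15 tumors of each of the 6 genes (columns) with each other (rows above the line) and with genes of the osteoclast, leukocyte, macrophage and MHC class II lists (rows below it). The rows below the line are a selection from those lists. Among them CTSK, MMP9, ATP6V0D2 and TCIRG1 go with CD68 and CSF1R. CD163, MRC1, TLR4 and the DLA genes go with LYZ, CTSS, FCGR1A and SRGN. The osteoclast genes TNFRSF11A and ITGB3 and the macrophage genes MARCO, CD5L and CD14 are among those not drawn.

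The genes closest to each member over the tumors, among 4618 genes with a tumor value of at least 6, are given as a description, since all share the same arrays. For CD68 they were ATP6V0D2 (r = 0.961), HYAL1 (0.944) and TCIRG1 (0.939). ATP6V0D2 and TCIRG1 are subunits of the proton pump with which osteoclasts acidify bone, and HYAL1 is a lysosomal hyaluronidase. For CSF1R they were the leukocyte lysosomal protein LAPTM5 (0.935), HYAL1 (0.892) and the cell cycle gene GTSE1 (0.883). The proton pump genes had r of 0.758 and 0.856 with CSF1R and at most -0.133 with any gene of the other set.

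For CTSS the closest genes were DLA-DRA, an MHC class II chain (0.950), the bactericidal protein BPI (0.917) and S100P (0.911). FCGR1A was followed by the chemokine CCL23 (0.897), CTSS (0.877) and CD163 (0.877). LYZ was followed by the lectin CD209 (0.871), SPTBN1 (0.865) and the LPS receptor TLR4 (0.864), and SRGN by the monocyte chemokine CCL2 (0.892), SAT1 (0.887) and NR4A2 (0.882). CD163 had r of 0.795 to 0.895 with these 4 members, but -0.06 with CSF1R and -0.45 with CD68. The complement genes C1QA and C1QC lay on neither side, with r of 0.531 and 0.642 with CSF1R, 0.689 and 0.524 with CTSS, and 0.242 and 0.058 with SRGN. With the mean of the 6 standardized members the closest were MILR1 (0.921), CD80 (0.917), CASP4 (0.903), DLA-DQA1 (0.880), CCL23 (0.877) and CYBB (0.873), followed by DLA-DRA, MRC1, TLR4 and DLA-DQB1. For scale, the middle 90% of all genes had r between -0.497 and 0.551 with CD68 and between -0.529 and 0.545 with FCGR1A.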

How the data were processed

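Total RNA of 23 canine samples was labelled by a one-cycle protocol and hybridized to Affymetrix Canine Genome arrays in 1 batch at 1 core facility, per the study's methods. The authors summarized each probe set by RMA (background correction, quantile normalization, log2 scale) and deposited these log2 values for 23913 probe sets; the sources used here name no software version. RMA compresses differences of dim probe sets, and precision is limited by how many arrays there are. Groups came from the labels. The highest correlation between 2 arrays was 0.9781, and 0 pairs were identical.

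After 77 control probe sets were set aside, 23836 entered limma 3.58.1 (R 4.3.3; lmFit, eBayes), two-sided, with Benjamini-Hochberg adjustment over all of them and a threshold of 0.01. The tumor versus normal fit held 15 and 6 samples; each organ and the cell lines were contrasts of a model of 5 groups. The platform annotation named 1 gene at 10549 probe sets, more than 1 at 138 and no gene at 13149. Where a gene had several probe sets, the one brightest on average stood for it. Names follow that annotation; CD68's gene ID was not found in the RefSeq table used here. The 5′ index is the mean 3′ minus 5′ difference of actin and Gapdh controls, split at 1.5. Correlations and their permutation tests used NumPy 2.4.6, with ranks from SciPy 1.17.1 (100000 resamples, exact for classes of tumors). Scripts were tested on simulated data. The members and the 15 gene lists (90 of 201 genes measured) were chosen with earlier results of these data known. Named were all member probe sets, up to 4 genes of a list with the largest difference past the threshold, list genes that bear on a member, the 3 genes closest to each member and the 10 closest to their mean.

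Same-numbered organ samples deviated together over all probe sets (r = 0.607 between kidney and liver, 0.596 between kidney and lymph node, and 0.530 between the remaining pair). Replicate 1 of each organ was also its array with low 5′ signal, so replicate number and 5′ class cannot be told apart in the organs. The labels do not say whether same-numbered samples came from the same dog. A block for the number is equally a block for the 5′ class.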

Additional observations from a re-analysis of the deposited data

How the results depend on the processing

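No difference between groups changed its sign where it had passed. The call of 1 member higher in tumors than in normal samples became 2 at a threshold of 0.05 and 0 with the 5′ index as covariate, with arrays of full or of low 5′ signal alone, with organ as a random block and without the 5 spiked tumors, and it was 0 to 1 when 1 sample was left out. The methods' t-test gave 0 members and 812 probe sets at an adjusted 0.005. Against kidney the 1 became 2 at 0.05, without dim probe sets and without the spiked tumors, 3 with the covariate, 0 within either 5′ class, and 0 to 2 with 1 sample left out. Against lymph node the 0 higher became 1 at 0.05 and the 0 lower became 1 without the spiked tumors. The 9 lower in cell lines were 3 to 10 with 1 sample left out, with the lone cell line assumed to vary like the other groups. Among organs the 0 became 4 at 0.05, 1 without dim probe sets and 4 with the replicate block. The 7 pairs of members past the threshold became 2 in tumors with low 5′ signal and 2 without the spiked tumors. The 5 relations with markers became 3 (Spearman's rho, partial correlation given the 5′ index or the spike, or without the spiked tumors), 2 (mean of all probe sets, or full 5′ signal), 1 (without the 2 farthest tumors) and 0 (low 5′ signal); given the spike 1 of the 3, CTSS with CD3E (0.696, adjusted p = 0.0396), was not among the 5, and a smaller number of tumors lowers what the last settings could detect. Other causes were not tested. The settings without the spiked tumors, the partial correlation given the spike and the tests of spiked tumors were chosen after seeing the data.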

Other observations

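Of 10 measured genes of lysosomal proteases and membrane proteins other than CD68 and CTSS, 1 was higher and 2 were lower in tumors than in normal samples, beside 310 and 295 of all 6540 genes (limma, adjusted p under 0.01). GLB1, the lysosomal beta-galactosidase, was higher by 1.84 ± 0.31 (SE; adjusted p = 0.00041), CTSZ was lower by -2.29 ± 0.36 (adjusted p = 0.00021) and CTSH by -1.12 ± 0.27 (adjusted p = 0.00914). CTSC, a protease that activates granule enzymes, was lower in cell lines than in tumors by -2.96 ± 0.48 (adjusted p = 0.00039). The mean level of the list was 9.32 to 10.2 in tumors, 10.4 and 10.5 in kidneys, 9.67 and 9.95 in livers, 9.52 and 9.93 in lymph nodes and 8.94 and 9.50 in cell lines.

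Granulocytes, which make lysozyme, and mast cells, which make serglycin, had few genes measured. The mean of 2 granulocyte genes (ELANE and CXCR2) was 4.37 to 5.04 in tumors and 4.49 to 4.81 in the organs, and that of 3 mast cell genes (KIT, FCER1A and MS4A2) was 3.81 to 5.25 in tumors and 4.07 to 5.10 in the organs. FCER1A reached 6.86 in tumors and, as the 1 mast cell gene bright enough there, had r of 0.771 with LYZ and 0.615 with SRGN over the 15 tumors. Of the growth factor list only CSF2 was measured, at 5.5 to 8.95 in tumors and 5.53 to 6.07 in the organs. The monocyte chemokines CCL2, CCL3, CCL4 and CCL5 averaged 5.01 to 8.51 in tumors. CCL2 was 1.92 ± 0.87 higher in tumors than in normal samples and did not pass (limma adjusted p = 0.162). The cell lines also expressed it, at 7.16 and 10.95, within the tumor range of 5.94 to 12.46. In the bone matrix list 3 of 8 genes were higher in tumors than in normal samples, which were COL1A1, COL1A2 and SPARC, while SPP1 (osteopontin), made by osteoblasts and macrophages alike, was higher than in lymph node by 6.25 ± 0.63 and lower in cell lines than in tumors by -6.81 ± 0.63. SPP1 in the kidneys (11.13 and 11.34) was at the level of the tumors (mean 11.14).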
